A study of Saccharomyces cerevisiae and Saccharomyces pastorianus with 78 samples.

Results

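The late change of the ethanol course was followed in BY4741, a haploid laboratory strain of Saccharomyces cerevisiae, by comparing 3 libraries taken 8 h after the addition of 7% EtOH with 3 libraries taken 2 h after it. These 6 libraries, of 78 in the series, were chosen by their labels. The cells were labelled WT and grew in YPD, a rich glucose medium. Each culture was divided, and one aliquot received 7% EtOH and the other 0.01% SDS, an anionic detergent. Controls were taken from the first aliquot just before EtOH was added. Poly(A) RNA was read from 3 biological replicates per group, in 13 groups per yeast (the control, and 6 times of each stress from 0.5 h to 20 h), and the other yeast of the series, S. pastorianus, is not described here. No untreated culture was sampled at 2 or 8 h, so hours in EtOH and hours in culture cannot be told apart.

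Ethanol at this strength disturbs membranes and protein folding, and yeast answers first by making heat shock chaperones, which hold or refold damaged proteins. Growth slows at the same time. In a slowing yeast cell the mRNAs for ribosomal proteins and translation factors fall, genes held down by glucose are released, and amino acid and nucleotide synthesis is reset by transcription factors such as Gcn4 and Bas1. The question addressed was which genes moved after the first hours of the ethanol course.

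Of 6101 genes tested, 350 (5.74%) were called, with an adjusted p under 0.05 in edgeR's quasi-likelihood test and a change of at least 2-fold between 2 h and 8 h. Among them, 297 (4.87%) were higher and 53 (0.869%) lower at 8 h. The rises were mostly in genes with few counts and the falls in genes with many; CPM is not divided by gene length. The median level at 2 h was 6.78 CPM (a gene's counts relative to the total of its library, after TMM scaling) among the genes that rose, 1281 CPM among those that fell and 58.5 CPM over all genes. The whole distribution leaned the same way. Genes above 500 CPM, of which there were 314, had a median log2 change of -0.58, and 37 of them (11.8%) fell. Genes under 5 CPM numbered 568 and had a median of 0.55, and 92 of them (16.2%) rose. In SDS, over the same hours, these 2 groups of genes had medians of 0.41 and 0.12. The band limits were chosen after the values were seen.

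**Figure D1:**
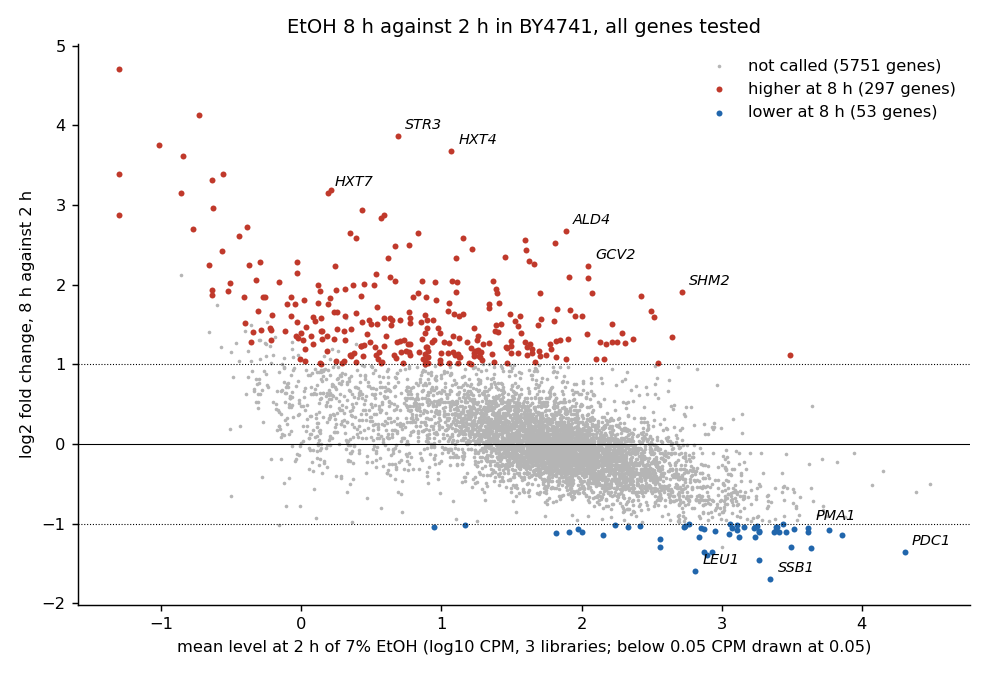
Each point is 1 of 6101 genes, with its mean level at 2 h of EtOH on the horizontal axis (log10 CPM, 3 genes below 0.05 CPM drawn there) and its log2 fold change from 2 h to 8 h on the vertical axis. The 297 genes that rose lie mostly at the left and the 53 that fell mostly at the right, with PDC1 the farthest right of those that fell.

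The 2 h libraries totalled 7152400 to 8979393 counts. The 8 h libraries were uneven in depth, with 6216014 counts in replicate 1, 21167236 in replicate 2 and 3105804 in replicate 3, which are the highest and lowest totals of the 39 BY4741 libraries. The shallowest of them also stood apart: replicate 3 was the lowest of the 8 h libraries in 209 of the 297 rises and the highest in 41 of the 53 falls. Its Pearson correlations of log CPM across genes with the other 8 h libraries were 0.973 and 0.984, against 0.993 between those 2. Replicate 3 was also lowest at 2 h on the first principal component of the control and EtOH libraries (49.1% of variance). It was at -17.9 there, against -3.6 and -8.9, and at 8 h at 17, against 30.9 and 25.8. At 20 h it was the highest, at 52. Without replicate 3 of 8 h 343 genes rose and 88 fell. The count of falls was 23 without replicate 1 of 8 h and 34 without replicate 3 of 2 h. Scaled by total counts alone, the median gene moved by 0.31 (log2) and the split became 593 higher and 7 lower, 98.8% higher against 84.9% after TMM. The changes below are relative to the TMM scaling. In bulk RNA, fewer cells that express a gene and less of its RNA per cell cannot be told apart. LEU2, MET17 and URA3, which this strain lacks, had no count in any BY4741 library, which allows up to 0.833 CPM in the shallowest of the 8 h libraries (3 counts). HIS3, which is deleted only in part, had 310 to 2650 counts in the 6 libraries.

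Some genes of the translation machinery fell. Of 20 ribosomal proteins that yeast makes from 1 gene copy, 7 fell and none rose. Of all genes 0.869% fell, and of those above 500 CPM 11.8%. The median log2 change of the 20 was -0.79, against -0.58 for all genes above 500 CPM. RPL10 (YLR075W, chromosome XII, 282927 to 283592), a protein of the large subunit, had 1565, 1713 and 1876 CPM at 2 h and 727.5, 755.8 and 801.6 CPM at 8 h. Every 8 h library lay below every 2 h library, as in 26.5% of all genes; the times did not overlap in either direction for 47.9%. The log2 change was -1.17 ± 0.16 (SE), with an adjusted p of 1.45e-06 by edgeR's quasi-likelihood test.

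RPL3, also of the large subunit, fell by 1.15 on the log2 scale and lost its call without replicate 1 of 8 h. RPP0, which carries the ribosomal stalk, was at -1.01, just past the 2-fold limit, and lost its call in 9 of the other analyses. Over all 137 genes of cytosolic ribosomal proteins, paralogues included, 21 fell (15.3%), beside 11.8% of all genes above 500 CPM. By adjusted p alone 101 were lower, against 21.8% of all genes (40.3% in both directions). Their summed level fell from 149700, 163400 and 185900 CPM in the 2 h libraries to 79060, 93080 and 122300 CPM in the 8 h libraries. The 2 times did not overlap, and replicate 3 was the highest at both. The 21 falls became 40 without replicate 3 of 8 h, 5 without replicate 1 of 8 h and 10 without replicate 3 of 2 h, and 2 when libraries were scaled by total counts. For the 7 single-copy members that fell, the counts were 11 without replicate 3 of 8 h, 2 without replicate 1, and 0 under total counts.

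SSB1 (YDL229W, chromosome IV, 44065 to 45906) had the lowest log2 change among genes whose mean over both times reached 20 CPM. It encodes an Hsp70 that sits on the ribosome and receives new polypeptides. It had 1990, 2198 and 2473 CPM at 2 h and 778, 689 and 587 CPM at 8 h, a log2 change of -1.70 ± 0.20 (adjusted p of 1.6e-07, edgeR quasi-likelihood). Of its sequence, 43.2% of 50-base stretches recur elsewhere in the genome, in its near copy SSB2, so reads may be split between them. SSB2 itself was at -0.94 and not called.

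SSZ1, a subunit of the ribosome-associated complex that works with SSB1, has no such repeats. It fell by 1.36, from 752, 855 and 961 CPM to 353, 325 and 323 CPM. ZUO1, the other subunit of that complex, was at -0.79. The 2 subunits of the nascent polypeptide-associated complex, EGD1 and EGD2, were at -0.97 and -0.71. In all, 2 of 7 genes of this list fell, and 6 of 7 were lower by adjusted p alone. The shares over all genes were 0.869% and 21.8%, and 11.8% of genes above 500 CPM fell.

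The translation factors followed: 4 of 11 fell, with a median of -0.89, beside 0.869% of all genes. Of all genes above 500 CPM 11.8% fell, with a median of -0.58. EFB1, an exchange factor of elongation factor eEF1A, had 3018, 3021 and 3245 CPM at 2 h and 1143, 1153 and 1482 CPM at 8 h, and fell by 1.30 ± 0.10. It hosts the small nucleolar RNA SNR18 in its intron. TEF4, STM1 and TIF1 were the others, and the count was 1 without replicate 1 of 8 h or without replicate 3 of 2 h. TIF1 and TIF2 encode one initiation factor, and 84.9% of TIF1 recurs elsewhere. All 18 aminoacyl-tRNA synthetases tested, the enzymes that charge tRNAs, were lower by adjusted p, against 21.8% of all genes. They lay within a narrow range from -1.17 for THS1 to -0.53, with a median of -0.74. Only 2 of them, THS1 and SES1, passed the 2-fold limit.

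Genes that build ribosomes had a smaller median fall than the ribosomal proteins, without adjustment for level. None of 43 ribosome biogenesis genes was called, 24 were lower by adjusted p (21.8% of all genes), and the median was -0.43. At 2 h the 43 summed to 12500, 13330 and 14420 CPM, against 149700, 163400 and 185900 CPM for the 137 ribosomal protein genes. The median of all genes from 100 to 500 CPM was -0.19, and above 500 CPM -0.58. NOP7, a pre-60S assembly factor, had 718.8, 762.3 and 869 CPM at 2 h and 365, 477 and 608 CPM at 8 h, a log2 change of -0.70 ± 0.20. None of 8 RNA polymerase I genes and none of 23 mitochondrial ribosome genes was called.

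**Figure D2:**
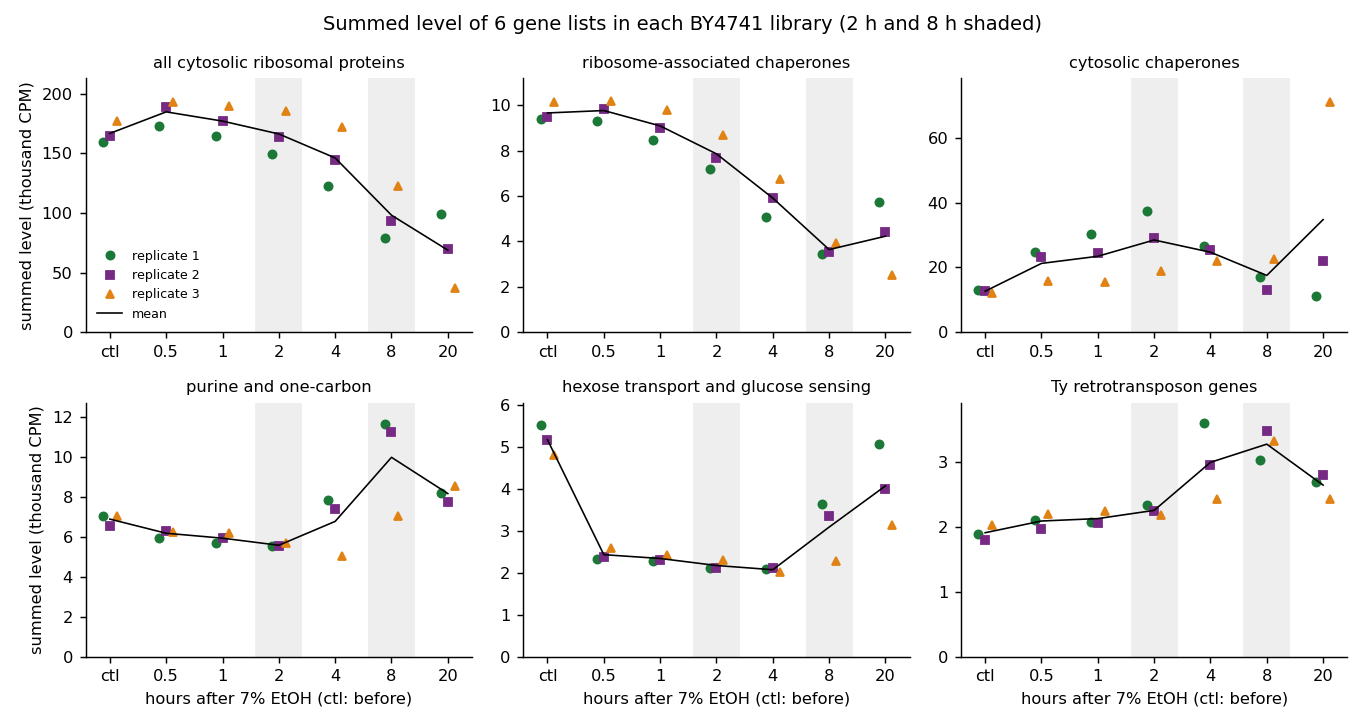
Summed CPM (axis in units of 1000 CPM) of 6 gene lists in each of the 21 control and EtOH libraries, by hours after EtOH, with 2 h and 8 h shaded. Points are libraries and the line joins the means: ribosomal proteins and ribosome-associated chaperones are lower in every 8 h library than in every 2 h library, while replicate 3 lies apart from the others for cytosolic chaperones.

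The chaperones that respond first to EtOH were not raised further between 2 h and 8 h. Of 15 cytosolic chaperone genes, none rose and 1, SSA2, fell, and the median was -0.58. Their 3 replicates went separate ways. At 2 h, replicate 3 was the lowest library for all 15 genes, and at 8 h it was the highest for 13 of them. The summed level was 37540, 28990 and 18840 CPM at 2 h, and 17050, 13010 and 22460 CPM at 8 h, against 12170 to 13110 CPM in the controls. Replicates 1 and 2 were lower at 8 h than at 2 h, and replicate 3 was higher.

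SSA4, a stress-inducible Hsp70, had 6586, 4648 and 2138 CPM at 2 h and 2530, 1453 and 4138 CPM at 8 h. Its groups overlapped, and the log2 change of -0.72 ± 0.53 was not called (adjusted p of 0.281, edgeR quasi-likelihood). HSP104, which pulls proteins out of aggregates, and HSP82, the inducible Hsp90, were at -0.57 ± 0.48 and -0.67 ± 0.41. HSP26, a small heat shock protein, had 1481, 1105 and 440 CPM at 2 h and 270, 152 and 819 CPM at 8 h. Its log2 change of -1.30 ± 0.54 had an adjusted p of 0.0517, and it was called without replicate 3 of 8 h or without replicate 3 of 2 h.

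The chaperonin list had less spread. All 8 subunits of the chaperonin CCT, which folds actin and tubulin, were lower by adjusted p, against 21.8% of all genes. They lay between -0.72 and -0.24, and none passed 2-fold. HSC82, the constitutive Hsp90, was at -0.78 ± 0.14. SSA2, a constitutive Hsp70, had 6977, 5807 and 4717 CPM at 2 h and 2537, 2479 and 3271 CPM at 8 h, a fall of 1.08 ± 0.22. Its call was lost without replicate 1 of 8 h and without replicate 1 of 2 h, and 58.2% of it recurs in other genes. The 17 genes of endoplasmic reticulum folding had a median of -0.03, with none called.

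**Figure D3:**
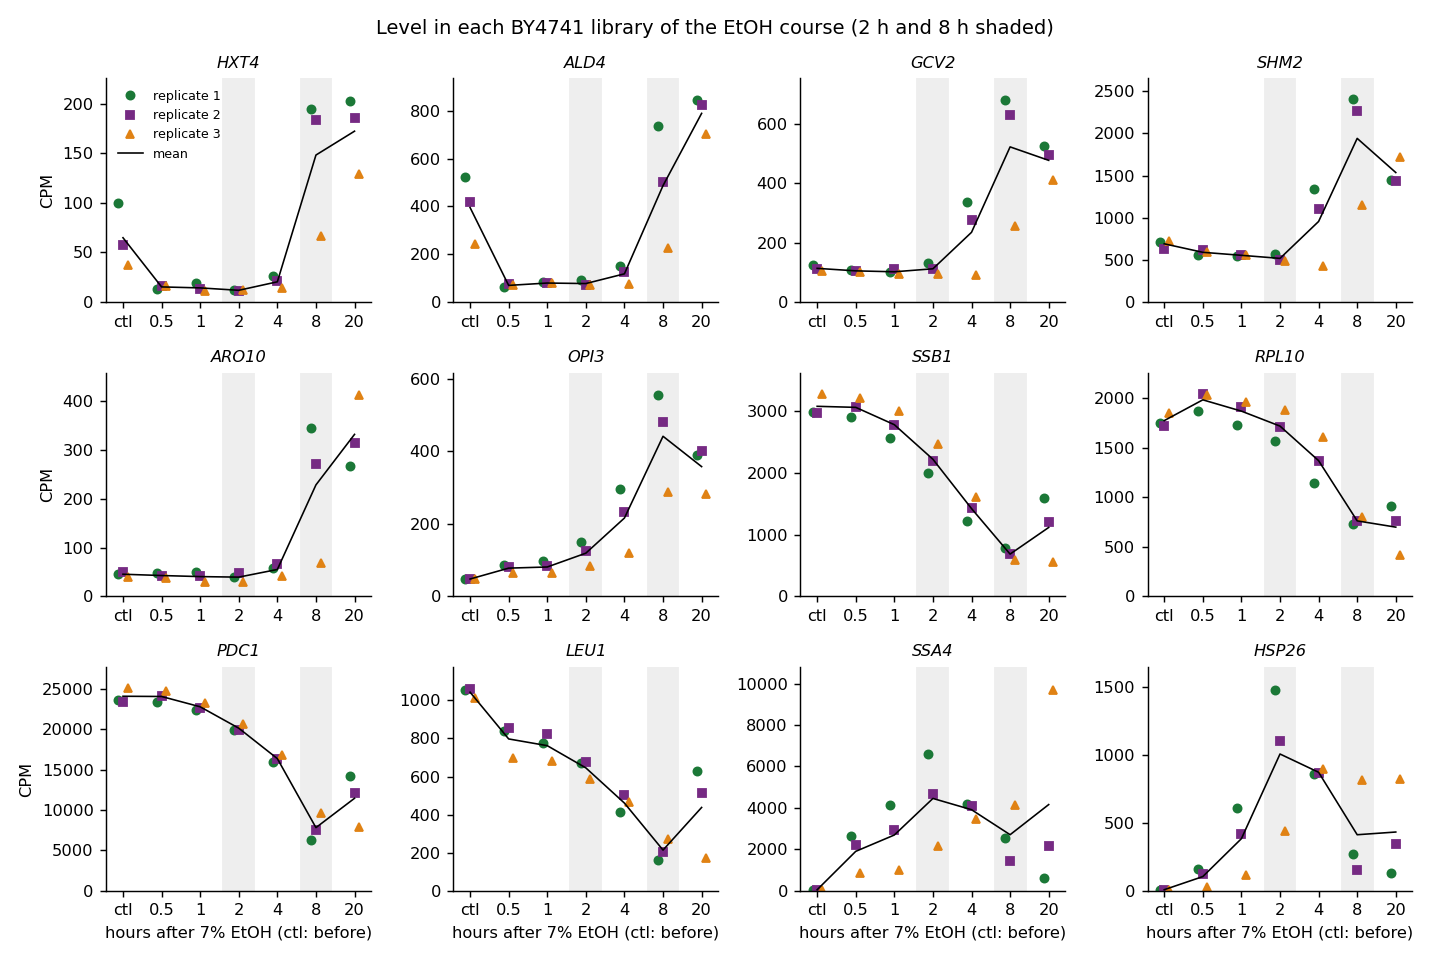
Level in CPM of 12 genes in each of the 21 control and EtOH libraries, by hours after EtOH, with 2 h and 8 h shaded. Points are libraries and the line joins the means: HXT4, ALD4, GCV2 and SHM2 are higher in all 3 libraries at 8 h than at 2 h, SSB1, RPL10, PDC1 and LEU1 are lower in all 3, and SSA4 and HSP26 overlap between the 2 times.

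Some genes of one-carbon metabolism rose. They encode the enzymes that move single carbon units from serine and glycine onto folate, for purines and methionine. Of 19 purine and one-carbon genes, 6 rose and none fell (4.87% of all genes rose), the median was 0.55, and the count stayed within 1.5 times of 6 in every other analysis run. The control region of 3 of them and of ARG1, an arginine gene, is shown because they share a sequence word. Each stretch runs from 300 to 101 bases before the start codon, on the gene's strand, in build R64 from RefSeq. Capitals mark TGACTC, or GAGTCA where it lies on the other strand; this word is bound by Bas1 and forms the core of the Gcn4 site TGACTCA, so the 2 cannot be told apart by it.

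GCV2, chrXIII:637200-637399, forward strand: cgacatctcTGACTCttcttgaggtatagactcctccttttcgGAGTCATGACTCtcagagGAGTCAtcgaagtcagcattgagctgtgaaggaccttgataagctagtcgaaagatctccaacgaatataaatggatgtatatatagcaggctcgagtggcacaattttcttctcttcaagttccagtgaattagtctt

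GCV1, chrIV:485466-485665, reverse strand: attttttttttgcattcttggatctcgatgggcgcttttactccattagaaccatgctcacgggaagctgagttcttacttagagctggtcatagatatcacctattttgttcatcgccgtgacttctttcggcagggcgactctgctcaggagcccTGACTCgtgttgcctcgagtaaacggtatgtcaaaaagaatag

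MTD1, chrXI:590095-590294, forward strand: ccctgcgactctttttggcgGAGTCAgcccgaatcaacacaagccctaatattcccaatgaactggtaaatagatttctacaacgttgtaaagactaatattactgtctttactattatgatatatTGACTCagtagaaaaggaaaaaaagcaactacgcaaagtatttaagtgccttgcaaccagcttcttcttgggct

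ARG1, chrXV:218911-219110, forward strand: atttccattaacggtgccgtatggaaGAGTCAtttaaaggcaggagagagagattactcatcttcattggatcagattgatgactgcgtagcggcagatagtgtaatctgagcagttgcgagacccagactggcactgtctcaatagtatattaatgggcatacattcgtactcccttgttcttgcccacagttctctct

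Searched on both strands, the word lies 4 times in the GCV2 stretch, 2 times in that of MTD1 and once in those of GCV1 and ARG1. It was present in 16 of 19 windows of this length in the purine and one-carbon list (84.2%) and 10 of 16 in the arginine and lysine list (62.5%), against 5.83% of 6007 protein-coding genes. Of the genes that rose, 37 of 267 with a window held it (13.9%), and of those that fell, 3 of 52 (5.77%). Within the purine list it was in 6 of 6 genes that rose and in 10 of 13 that were not called. A match is a description of letters, not of binding.

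GCV2 (YMR189W, chromosome XIII, 637500 to 640604) encodes the P subunit of glycine decarboxylase. It had 131, 112 and 92.7 CPM at 2 h and 682, 632 and 256 CPM at 8 h. All 8 h libraries lay above all 2 h libraries, with replicate 3 the lowest of the 8 h libraries. The log2 change was 2.23 ± 0.32 (adjusted p of 2.92e-06, edgeR quasi-likelihood).

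GCV1, the T subunit, had 91.3, 81.0 and 73.6 CPM at 2 h and 458, 403 and 182 CPM at 8 h, a change of 2.10 ± 0.29. MTD1, a cytosolic methylenetetrahydrofolate dehydrogenase, changed by 2.08 ± 0.34, from 112, 116 and 105 CPM to 569, 531 and 299 CPM. SHM2, the cytosolic serine hydroxymethyltransferase rose from 570, 500 and 481 CPM to 2404, 2267 and 1153 CPM, by 1.91 ± 0.37. The purine enzymes ADE17 and ADE2 rose by 1.59 and 1.39. At 4 h GCV2 had 336, 277 and 91.8 CPM and SHM2 had 1339, 1099 and 427 CPM, so that replicates 1 and 2 were above their 2 h levels and replicate 3 was not.

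Some genes of arginine synthesis rose too. Of 16 arginine and lysine genes, 5 rose, beside 4.87% of all genes. All 5 were in the arginine branch, among them ARG3, ARG1, CPA1 and ARG4, with log2 changes between 1.28 and 1.58. ARG1, argininosuccinate synthetase, had 57.7, 50.6 and 45.9 CPM at 2 h and 229, 159 and 63.1 CPM at 8 h. CPA1, the small subunit of carbamoyl phosphate synthetase, had 251, 226 and 219 CPM at 2 h and 740, 596 and 400 CPM at 8 h.

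STR3 (YGL184C, chromosome VII, 154615 to 156012), cystathionine beta-lyase of methionine synthesis, had the largest rise among genes whose mean over both times reached 20 CPM. It had 5.83, 4.66 and 4.14 CPM at 2 h and 54.5, 111 and 41.1 CPM at 8 h, a log2 change of 3.86 ± 0.49 (adjusted p of 5.36e-07, edgeR quasi-likelihood). MET6, methionine synthase, rose from 321, 312 and 306 CPM to 947, 1374 and 672 CPM, and the other 17 sulfate and methionine genes tested were not called. SSU1, the sulfite exporter, rose by 2.52 ± 0.27, from 70.1, 65.9 and 59.2 CPM to 541, 384 and 186 CPM.

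Of 10 branched-chain amino acid genes, 2 fell and 1 rose, with a median of -0.53, beside 0.869% and 4.87% of all genes. LEU1 (YGL009C, chromosome VII, 476313 to 478652), isopropylmalate isomerase of leucine synthesis, had 670, 676 and 590 CPM at 2 h and 162, 206 and 273 CPM at 8 h. It fell by 1.60 ± 0.24 (adjusted p of 4.86e-06, edgeR quasi-likelihood), with no overlap of the times. BAT1, the mitochondrial branched-chain aminotransferase, fell by 1.36 ± 0.22, from 673, 756 and 808 CPM to 255, 278 and 342 CPM. Its cytosolic counterpart BAT2 rose by 1.02 ± 0.19, from 324, 341 and 390 CPM to 1010, 735 and 397 CPM. That call was lost without replicate 1 of either time and with a replicate term in the fit.

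Some genes of sugar uptake rose. Of 20 genes of hexose transport and glucose sensing, 7 rose and none fell, beside 4.87% of all genes that rose. Low-level genes rose more often, 16.2% of those under 5 CPM and 12.1% of those from 5 to 20 CPM. The list's median was 0.54, and the count stayed within 1.5 times of 7 in every other analysis. HXT4 (YHR092C, chromosome VIII, 287081 to 288811), a glucose transporter of the higher-affinity class, had 12.1, 11.4 and 11.8 CPM at 2 h and 195, 183 and 66.7 CPM at 8 h. The lowest 8 h library was several times above the highest 2 h library, and the log2 change was 3.68 ± 0.32 (adjusted p of 8.29e-10, edgeR quasi-likelihood). HXT2, another transporter of low glucose, rose from 406, 426 and 489 CPM to 1434, 1252 and 661 CPM, by 1.34 ± 0.22.

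MTH1, a co-repressor through which hexose transporter genes are held down, rose too, from 11.7, 12.1 and 14.4 CPM to 63.8, 71.4 and 56.1 CPM. HXT5, HXT7, HXT9 and HXT10 rose by 1.09, 3.15, 1.93 and 1.64 on the log2 scale. HXT7 was near the counting floor at 2 h, with 0.677, 2.77 and 1.18 CPM. Of its sequence, 95.1% recurs in HXT6, and 61.9% of HXT9 recurs elsewhere, so these values may belong to their copies. HXT1, the low-affinity transporter of abundant glucose, had 457, 492 and 532 CPM at 2 h and 226, 247 and 301 CPM at 8 h. Its log2 change of -0.94 ± 0.15 missed the 2-fold limit and passed it without replicate 3 of 8 h.

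Isoforms of fermentation enzymes differed in direction. PDC1 (YLR044C, chromosome XII, 232390 to 234081), the main pyruvate decarboxylase had 19910, 19900 and 20650 CPM at 2 h and 6314, 7526 and 9648 CPM at 8 h. It fell by 1.36 ± 0.14 (adjusted p of 3.11e-08, edgeR quasi-likelihood). The minor isoform PDC6 rose from 9.76, 8.01 and 4.02 CPM to 40.2, 30.9 and 15.8 CPM. ADH2, the alcohol dehydrogenase that consumes ethanol, rose by 1.14 ± 0.19, from 33.5, 26.1 and 34.9 CPM to 87.3, 71.5 and 46.9 CPM. TDH1, a glyceraldehyde-3-phosphate dehydrogenase, rose by 1.11 with an adjusted p of 0.045 (edgeR quasi-likelihood). Among 23 glycolytic and fermentative genes, 3 rose and 1 fell, beside 4.87% and 0.869% of all genes. The list's median of -0.23 turned to 0.09 when libraries were scaled by total counts.

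ALD4 (YOR374W, chromosome XV, 1039840 to 1041399), the main mitochondrial acetaldehyde dehydrogenase, had 89.8, 69.1 and 71.9 CPM at 2 h and 734, 502 and 225 CPM at 8 h. Its log2 change was 2.67 ± 0.32 (adjusted p of 1.98e-07, edgeR quasi-likelihood), and the 2 times did not overlap. ADY2, an acetate carrier, rose by 1.23 from under 3 CPM. Some genes for the use of fatty acids and acetyl units rose: 4 of 17 in the peroxisomal and carnitine list, beside 4.87% of all genes. The list's median was 0.74, and 12 members were higher by adjusted p against 18.5% of all genes. The 4 were CRC1, the mitochondrial carnitine carrier, YAT1, a carnitine acetyltransferase, FAA2, an acyl-CoA synthetase, and POX1, the acyl-CoA oxidase. Their changes were 2.93, 1.45, 1.30 and 1.30. FAA2 overlaps the opposite gene BUD25 over 160 bases.

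Of 25 respiratory chain genes, 1 rose (NDE2, an external NADH dehydrogenase, by 1.02), beside 4.87% of all genes, and none of 14 ATP synthase genes was called. In the TCA and gluconeogenesis list of 22, PCK1 of gluconeogenesis and SFC1, a succinate-fumarate carrier, rose from levels under 10 CPM. By adjusted p 9 members were higher and 7 lower, beside 18.5% and 21.8% of all genes. ACO1, aconitase, fell by 1.20 ± 0.16, from 386, 362 and 337 CPM to 165, 141 and 169 CPM. The call of NDE2 was lost without replicate 3 of 2 h or replicate 1 of 8 h, and with a replicate term in the 6 libraries alone. That of SFC1 was lost without replicate 2 or replicate 3 of 2 h. CIT1, citrate synthase, was at 0.31 ± 0.13 and was not called.

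**Figure D4:**
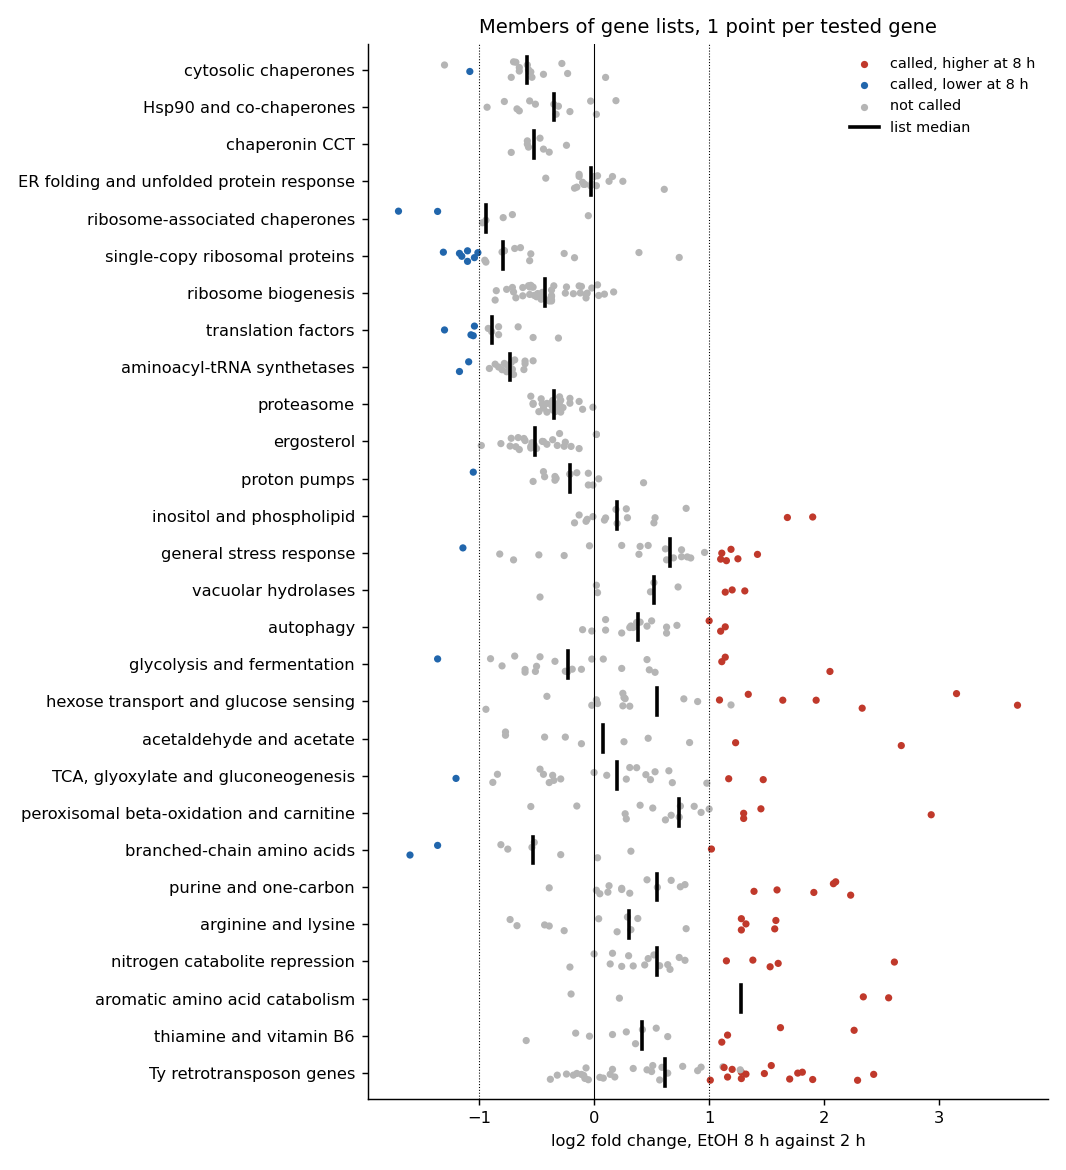
Log2 fold change from 2 h to 8 h of EtOH for every tested member of 28 gene lists, 1 point per gene, with bars at the list medians and dotted lines at the 2-fold limits. The medians of single-copy ribosomal proteins and cytosolic chaperones are at -0.79 and -0.58, that of endoplasmic reticulum folding is at -0.03, and single genes of hexose transport reach 3.68.

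Some genes of nitrogen use rose. ARO9 and ARO10, the aminotransferase and the decarboxylase that turn aromatic amino acids into fusel alcohols, rose by 2.34 ± 0.28 and 2.56 ± 0.30. ARO10 (YDR380W, chromosome IV, 1234218 to 1236125) had 40.5, 47.5 and 30.3 CPM at 2 h and 346, 272 and 68.3 CPM at 8 h. Replicate 3 moved far less than the others. Their activator ARO80 was at 0.22 and the constitutive aminotransferase ARO8 at -0.20, neither of them called. The 5 of 20 genes under nitrogen catabolite repression that rose were GDH2, PUT4, PUT1, DAL1 and DAL80. None fell, the median was 0.55, and 4.87% of all genes rose. GDH2, which releases ammonia from glutamate, had 102, 90.8 and 78.3 CPM at 2 h and 373, 277 and 165 CPM at 8 h. DAL80, a repressor of these genes, lay between 0 and 2.33 CPM in the 6 libraries.

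Of 7 genes of NAD synthesis from tryptophan, 2 rose, beside 4.87% of all genes and 12.1% of those from 5 to 20 CPM. BNA2, tryptophan dioxygenase, had 7.05, 8.45 and 4.85 CPM at 2 h and 47.6, 51.2 and 23.6 CPM at 8 h, a change of 2.65 ± 0.31, and BNA1 rose by 1.39 ± 0.12. The other 5 genes of the path were not called. Of 13 thiamine and vitamin B6 genes, 4 rose and none fell, beside 4.87% of all genes that rose. SNZ1 of vitamin B6 synthesis rose from 44.9, 42.1 and 51.2 CPM to 300, 238 and 118 CPM, its partner SNO1 rose by 1.16, and THI4 and THI2 of thiamine synthesis by 1.62 and 1.11. MUP3, a methionine permease, rose by 2.03, and the other 11 amino acid permeases tested were not called. PHO89, a sodium-phosphate cotransporter, rose from 298, 263 and 239 CPM to 1128, 1064 and 701 CPM, by 1.86 ± 0.21, while the other 15 genes of the phosphate list were not called. None of 21 iron regulon genes was called.

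The general stress genes, which are the targets of Msn2 and Msn4, rose in part. Of 24, 6 rose and 1 fell, with a median of 0.66, beside 4.87% and 0.869% of all genes. Of all genes under 5 CPM 16.2% rose, and of those from 5 to 20 CPM 12.1%. PAI3 and GRE1, of those that rose, had means of 2.03 and 5.13 CPM at 2 h. The rises were PAI3, HSP12, TMA10, GRE1, YGP1 and MSC1, and the fall was SPI1. The count of called members was 4 without replicate 1 of 8 h or without replicate 3 of 2 h. HSP12, which coats membranes under stress, had 54.9, 43.7 and 30.6 CPM at 2 h and 191, 65.4 and 48.6 CPM at 8 h. The times overlapped, and its change of 1.25 ± 0.39 came to 0.49 without replicate 1 of 8 h; the call was also lost without replicate 3 of 2 h. The word AGGGG, the core of the Msn2 and Msn4 site, lies on either strand in the window from 300 to 101 bases before the start codon in 18 of the 24 genes (75%), against 16.2% of all windows. It was in 4 of the 7 called members and in 14 of the 17 not called. None of 7 trehalose genes was called. By adjusted p alone, TPS1 and TPS3 of synthesis were lower, at -0.38 ± 0.13 and -0.33 ± 0.11, and NTH1 and ATH1, which break trehalose down, were higher, at 0.94 ± 0.15 and 0.60 ± 0.11. In the glycogen list of 11, GLG1 and GDB1 rose, and 4 genes were called without replicate 3 of 8 h or without replicate 1 of 2 h. The call of GDB1 was lost without replicate 1 of 8 h or replicate 3 of 2 h.

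Some vacuolar and autophagy genes rose. APE1, an aminopeptidase carried to the vacuole by a form of autophagy, had 83.6, 70.1 and 58.1 CPM at 2 h and 239, 189 and 91.9 CPM at 8 h. Of 9 genes on the vacuolar hydrolase list, 3 rose (APE1, AMS1 and PBI2), beside 4.87% of all genes. PBI2 is not a hydrolase but encodes an inhibitor of vacuolar proteinase B. AMS1 lost its call without replicate 3 of 2 h. Of 18 autophagy genes, 3 rose (16.7%), ATG34, ATG39 and ATG8, from means of 11.1, 2.77 and 16.2 CPM at 2 h. Of all genes under 5 CPM 16.2% rose, and of those from 5 to 20 CPM 12.1%. Only 1 autophagy gene was called without replicate 1 of 8 h, without replicate 2 of 8 h or without replicate 3 of 2 h. ATG8, which coats autophagosomes, had 19.1, 17.2 and 12.3 CPM at 2 h and 37.0, 33.3 and 24.7 CPM at 8 h, a change of 1.00 ± 0.24. Its call was also lost in DESeq2 and with a replicate term in the fit. None of 32 proteasome genes was called, and 27 were lower by adjusted p, against 21.8% of all genes. Their median of -0.35 came to -0.03 under total counts.

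In the oxidative stress list of 26, OYE3 and PRX1 rose and GPX2, a glutathione peroxidase, fell by 1.11 ± 0.11. PRX1, a mitochondrial peroxiredoxin, had overlapping times, and without replicate 1 of 8 h only OYE3 stayed called on this list. YHB1, the flavohaemoglobin that detoxifies nitric oxide, fell by 1.40 ± 0.23, from 715, 835 and 812 CPM to 239, 281 and 379 CPM. In the glycerol and osmotic list of 12, GPP2, a glycerol phosphatase, and GCY1, a glycerol dehydrogenase, rose by 1.38 ± 0.22 and 1.01. GCY1 lost its call without replicate 3 of 2 h or replicate 2 of 8 h, and with a replicate term over all 39 libraries.

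The genes of the cell envelope were read by lists. OPI3 (YJR073C, chromosome X, 572315 to 572935), which makes the last methylations to phosphatidylcholine, had 149, 125 and 83.5 CPM at 2 h and 557, 481 and 288 CPM at 8 h. It rose by 1.90 ± 0.23 (adjusted p of 2.28e-07, edgeR quasi-likelihood). INO1, inositol phosphate synthase, rose by 1.68 ± 0.43, and its 2 h libraries were spread from 27.9 to 133 CPM. These were the only 2 of 16 inositol and phospholipid genes called. PMA1, the plasma membrane proton pump, had 4260, 3993 and 4184 CPM at 2 h and 2354, 2015 and 1644 CPM at 8 h, a log2 change of -1.05 ± 0.17 that missed the 2-fold limit without replicate 3 of 8 h.

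Of the ergosterol genes, 21 of 26 were lower by adjusted p, against 21.8% of all genes, and none passed 2-fold. ERG11, the lanosterol demethylase, had 798, 807 and 791 CPM at 2 h and 504, 526 and 486 CPM at 8 h, a change of -0.66 ± 0.09. OLE1, the fatty acid desaturase, was at -1.02 ± 0.28 and lost its call in 8 other analyses. These include the analyses without replicate 1 or replicate 2 of 8 h and without replicate 3 of 2 h. HEM13 of haem synthesis fell by 1.07 ± 0.13, a call lost without replicate 1 of 8 h. Of 24 cell wall genes, GSC2, YPS3 and PIR3 rose. GSC2, a glucan synthase subunit made under stress, had 266, 191 and 152 CPM at 2 h and 565, 564 and 333 CPM at 8 h. The kinase SLT2 of the cell wall integrity pathway was at 0.56 ± 0.13, and none of the 14 genes of that pathway was called. FMP45 was the only 1 of 14 eisosome genes called, rising by 1.30. CTS1, the chitinase that parts daughter cells, fell by 1.07 ± 0.23, from 647, 750 and 842 CPM to 380, 347 and 339 CPM, a call lost without replicate 3 of 2 h. None of 27 sphingolipid genes and none of 14 multidrug resistance genes was called, with the efflux pump PDR5 at -0.60 ± 0.11.

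Markers of cell identity were read as a check. BY4741 is of mating type a, and the a-specific receptor gene STE2 had 463, 551 and 600 CPM at 2 h and 270, 254 and 260 CPM at 8 h, a fall of 1.04 ± 0.10 whose call was lost without replicate 3 of 2 h. It was the only 1 of 7 a-specific genes called. STE6 and BAR1 were at -0.78 and -0.82, and MFA1, MFA2, AGA2 and ASG7 lay between -0.16 and -0.05. The alpha-specific pheromone gene MF(ALPHA)1 had 2 to 27 counts in these libraries and was filtered out. STE3, the receptor of alpha cells, rose from 3.39, 2.19 and 1.42 CPM to 9.51, 8.84 and 9.44 CPM. It was the only 1 of 3 alpha-specific genes tested that was called, with SAG1 at 0.27 and MF(ALPHA)2 at 0.08. REC8, the meiotic cohesin, rose from 2.98, 2.48 and 1.18 CPM to 14.5, 14.8 and 11.1 CPM, and SPO13 by 1.11, while the other 11 meiosis genes tested were not called. Their part in the other results was not tested. None of 10 histone genes, 18 genes of G1 and S phase, 12 of G2 and M phase and 14 of the pheromone response was called.

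Some retrotransposon genes also rose. Of 42 Ty genes tested, of 89 annotated, 15 rose and none fell, with a median of 0.62, beside 4.87% of all genes that rose. The element gene YBL100W-B had 50.5, 44.1 and 26.4 CPM at 2 h and 171, 276 and 199 CPM at 8 h, a change of 2.43 ± 0.33. Ty copies share most of their sequence (84.3% of the 50-base stretches in this one), so which copies rose cannot be read from the counts. The summed Ty level was 2332, 2247 and 2184 CPM at 2 h and 3025, 3479 and 3319 CPM at 8 h.

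The SDS aliquots of the same cultures were sampled at the same hours and share no library with the EtOH groups. In SDS, 138 genes (2.26%) were called between 2 h and 8 h, 71 higher (1.16%) and 67 lower (1.1%). The test of the difference between the EtOH change and the SDS change called 772 genes (12.7%), 451 with a higher (7.39%) and 321 with a lower (5.26%) change in EtOH. Under total-count scaling the difference had 1004 higher and 135 lower (88.1% higher against 58.4%), and 31.4% of the SDS calls were higher against 51.4%. Of the 104 genes named by rule, 85 differed, and 59 of these had the higher change in EtOH. Of the 104, 92 were called in the EtOH comparison, which shares its libraries with this test, and some were named for this difference. Their number and direction are therefore in part set by that choice, and the share over all genes is 12.7%. Among the 20 single-copy ribosomal proteins, 18 had a lower change in EtOH, with a median of -0.79 in EtOH and 0.91 in SDS. RPL10 changed by -1.17 in EtOH and 0.65 in SDS, a difference of -1.82 (adjusted p of 2.91e-07, edgeR quasi-likelihood).

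Opposite signs were also seen in stress genes: HSP12 was at 1.25 in EtOH and -2.30 in SDS, and NQM1, a transaldolase paralogue, at 2.03 and -2.12. The difference for NQM1 was 4.15 (adjusted p of 5.12e-13, edgeR quasi-likelihood). ALD4 was at 2.67 and -1.18, and YHB1 at -1.40 and 1.68. HXT4 and STR3 were at 3.68 and 3.86 in EtOH and at 0.13 and 0.23 in SDS. In the purine and one-carbon list, 7 of 19 genes had a higher change in EtOH; at 2 h of SDS this list summed to 7983 CPM in replicate 1 and to 4019 and 4213 CPM in the others, so the SDS values rest on 1 high library.

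Some late changes were alike in size. LEU1 was at -1.60 in EtOH and -1.74 in SDS, and INO1 at 1.68 and 1.97. ARG1 was at 1.57 and 1.44, and ARG3 at 1.58 and 1.22. The differences were 0.14 ± 0.33, -0.30 ± 0.60, 0.13 ± 0.32 and 0.37 ± 0.38. None of the 4 was called, which does not show that the stresses act alike on these genes.

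**Figure D5:**
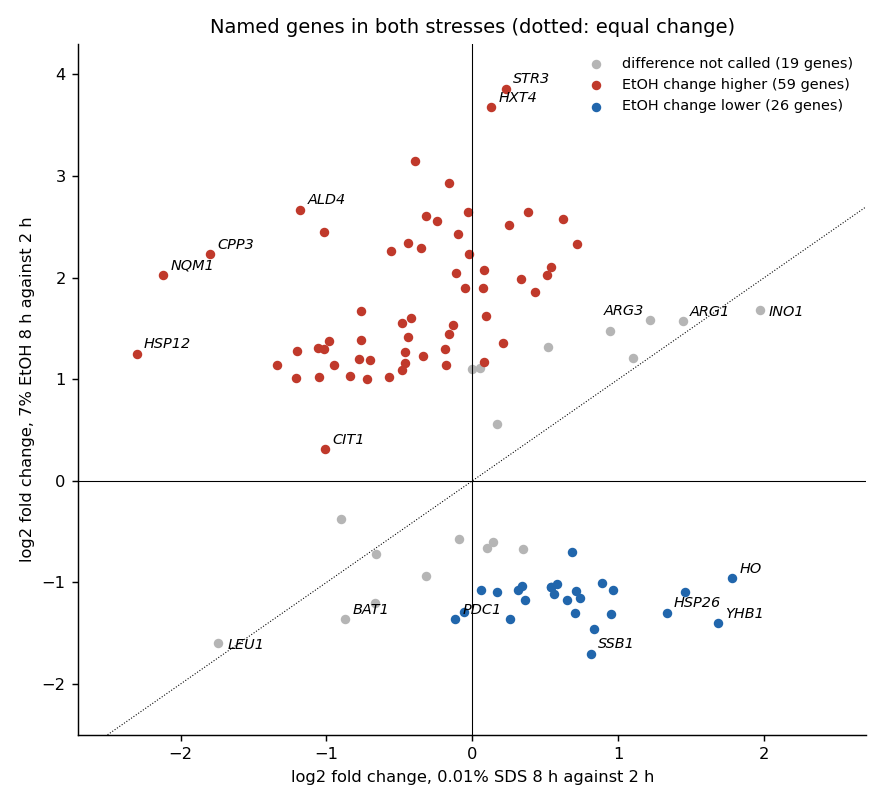
Log2 fold change from 2 h to 8 h in SDS (horizontal) and in EtOH (vertical) for the 104 named genes, coloured by the test of the difference, with a dotted line of equal change. The 59 genes with a higher EtOH change lie at the upper left, the 26 with a lower one at the lower right, and LEU1, INO1, ARG1 and ARG3 among the 19 whose difference was not called. Most of the genes were named for a called EtOH change, so these counts are in part set by the choice.

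Set against the control taken before EtOH, the 2 times show where each late change started. Both comparisons share the control libraries, and each shares libraries with the comparison above, so the values are only placed side by side. At 2 h 173 genes (2.84%) differed from the control, 95 above it (1.56%) and 78 below it (1.28%). At 8 h there were 623 (10.2%), 439 above (7.2%) and 184 below (3.02%). HXT4 was 2.47 below the control at 2 h (log2) and 1.21 above it at 8 h, and ALD4 2.36 below and 0.31 above. MTH1 was 1.65 below and 0.68 above. For the hexose list, 7 genes were below the control at 2 h, and 2 at 8 h.

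GCV2 stood at -0.02 against the control at 2 h and 2.21 at 8 h, ARO10 at -0.21 and 2.35, and SSB1 at -0.47 and -2.17. The ribosomal protein RPL10 was at -0.05 and -1.22. Of the 20 single-copy ribosomal proteins, none was below the control by the call at 2 h and 9 were at 8 h. SSA4 was 6.48 above the control at 2 h and 5.76 above it at 8 h, and 9 of 15 cytosolic chaperones were above it at 2 h and 7 at 8 h.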

How the data were processed

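The authors deposited a table of raw read counts per gene, with 3 libraries for each of 13 groups of BY4741. Per the submitters' processing notes reads were handled with FastQC 0.11.9 and Trimmomatic 0.39. The same notes name STAR 2.7.8, featureCounts 2.0.1 and the genome build R64. The strand setting, and how reads that map to several places were treated, are not given in the labels or notes. Of 7127 features, 6047 matched a RefSeq locus tag.

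All 39 BY4741 libraries were fitted together in edgeR 4.0.16 (R 4.3.3) with 1 coefficient per group, its default low-count filter (6101 genes kept), TMM scaling and the quasi-likelihood test, with 26 residual degrees of freedom and Benjamini-Hochberg adjustment over all genes. A gene was called at an adjusted p under 0.05 and an absolute log2 change of at least 1. SEs were derived from the F statistic. The fit was tested on simulated data. DESeq2 1.42.0, other scalings and filters, the 6 libraries alone, a replicate term and leaving out each library were alternatives. No 2 replicates were alike enough to be 1 library deposited again. A limit set by a count of 0 used 3 counts and covers counting error only.

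Named genes were, from the calls whose mean reached 20 CPM and whose times did not overlap, the 12 largest rises and 12 largest falls; up to 3 called members per list; 16 set genes; and the 4 largest differences from SDS each way. The comparison, its 53 lists and the rule were chosen with earlier results of these data known. A further 7 lists (aromatic amino acid catabolism, NAD synthesis, ribosome-associated chaperones, aminoacyl-tRNA synthetases, translation factors, all cytosolic ribosomal proteins, Ty genes), the level bands, the sequence words and the window were chosen after the values were seen. So were the other genes named, such as SHM2, ADE2, SSB2 and HXT6, mostly as members of a list described. Promoter stretches were read from the RefSeq genome, build R64. Counts of S. pastorianus were not analysed here. Results for 2 genes are not reported here.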

Additional observations from a re-analysis of the deposited data

Results flagged for a closer look

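The change from 2 h to 8 h differed between EtOH and SDS for the 84 named genes listed here, by edgeR's quasi-likelihood test of the difference with Benjamini-Hochberg adjustment. The values below are that difference on the log2 scale, EtOH minus SDS, and no explanation was tested. The change was higher in EtOH for 59 of them. Most named genes were chosen for a called EtOH change, and some for the size of this difference. Their number and direction are therefore in part set by that choice.

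The largest of these differences were those of NQM1 4.15, CPP3 4.04, ALD4 3.84, STR3 3.63, HXT4 3.55, HSP12 3.55, HXT7 3.54, BOP2 3.47 and CRC1 3.10. A difference of at least 2 was also found for DAL80 2.93, SNZ1 2.81, ARO10 2.80, ARO9 2.79, BNA2 2.68, YDR034C-D 2.64, YBL100W-B 2.53, AMS1 2.48, PRX1 2.48, MET6 2.44, APE1 2.38, GPP2 2.37, FMP45 2.32, SSU1 2.27, REC8 2.27, GCV2 2.25, GCY1 2.21, PDC6 2.16, BNA1 2.15, ATG34 2.09, BAT2 2.07, OYE3 2.03, GDH2 2.02 and MTD1 2.00. Smaller differences, of at least 1.5, were those of PBI2 1.98, YKR075C 1.96, OPI3 1.94, TMA10 1.89, GDB1 1.87, PAI3 1.86, YDR210W-B 1.83, GSC2 1.73, ATG8 1.72, STE3 1.66, PUT4 1.66, SNO1 1.62, YAT1 1.61, MTH1 1.61, NDE2 1.59, YPS3 1.57, GCV1 1.56, ADY2 1.56, THI4 1.54 and MUP3 1.52. The remaining genes with a higher change in EtOH were FAA2 1.49, PHO89 1.43, CIT1 1.32, ADH2 1.32, GLG1 1.15 and PCK1 1.08.

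The change was lower in EtOH for 25 of them. The difference was -2 or lower for YHB1 -3.07, HO -2.74, HSP26 -2.63, RPL9A -2.55, SSB1 -2.51, RPS4B -2.29, STM1 -2.03 and EFB1 -2.0. Between -2 and -1.5 lay RPL3 -1.90, RPP0 -1.90, RPL10 -1.82, SSA2 -1.79, GPX2 -1.67, SSZ1 -1.62, OLE1 -1.60, PMA1 -1.59, TIF1 -1.59 and THS1 -1.53. The others were CTS1 -1.38, NOP7 -1.38, STE2 -1.38, SES1 -1.26, PDC1 -1.24, HRP1 -1.24 and HEM13 -1.13.

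Among the widest of these, YHB1 was at -1.40 in EtOH and 1.68 in SDS, and NQM1 at 2.03 and -2.12, so that each moved in opposite directions under the 2 stresses.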

How the results depend on the processing

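Against 350 calls, DESeq2 made 344 (336 shared), RLE size factors 353 (346 shared) and the 6 libraries alone 322 (305 shared). Scaled by total counts, 600 genes were called, 593 higher and 7 lower; of SDS calls 44 were higher, and of the EtOH minus SDS calls 1004 were higher and 135 lower. Without the low-count filter 35 genes fell. By adjusted p with no fold limit, an alternative added after the data were seen, 2457 genes differed in EtOH, 1714 in SDS and 2404 between them. Leaving out 1 library at a time gave 276 to 431 calls, 242 to 343 rises and 23 to 88 falls, the last being fewest without replicate 1 of 8 h and most without replicate 3 of 8 h; in SDS 119 to 154 calls, 57 to 79 rises and 62 to 76 falls; for the difference 696 to 837 calls, 401 to 476 higher and 243 to 370 lower. Why the counts moved between these settings was not tested.

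Replicate numbers were shared between times. The deviations of same-numbered libraries correlated at 0.14, -0.01 and 0.14, and replicate 2 of 8 h was at 0.02 with replicate 1 of 2 h. These small values do not settle whether same-numbered libraries came from the same culture. The main fit used no pairing, and a replicate block was an alternative. With a replicate block 344 genes were called over 39 libraries, and 304 from the 6 alone; BAT2 and ATG8 lost their calls in both, GCY1 in the first, and OLE1, NDE2 and RPP0 in the second. ATG8, OLE1 and RPP0 also lost theirs in DESeq2. The block also left 134 calls in SDS and 768 for the difference. Over the 104 named genes and all alternatives, 1268 values kept direction and side of the threshold, 79 lost the call, 5 gained it and none reversed. The 3105804 counts of replicate 3 of 8 h limit what can be read in genes of a few CPM, where 3 counts are 0.833 CPM.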
